A study of Mus musculus with 19 samples.

Results

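The 9 genes described here, Slc22a3, Slc22a5, Slc22a7, Slc22a15, Slc22a18, Slc22a23, Slc22a27, Slc22a28 and Slc22a30, belong to the Slc22 family of organic ion transporters. They were selected by symbol from 24 Slc22a genes analysed here, in a table of 51826 entries of liver RNA, and they were chosen on their values across the reproductive stages, so differences between stages are given for them as descriptions, with no p-value, and their calls in the fit across all genes are counted without being read as evidence. The livers came from 19 female Balb/c mice aged 12 weeks, each a separate animal. Of these, 7 were nulliparous, 6 were at lactation day 10 and 6 were at involution day 6, after weaning of the pups, and the labels give no transgene or drug treatment for any group. The mice came from Charles River Laboratories and The Jackson Laboratory, and the sources do not give the supplier of each mouse. Each mouse also carries an animal number. It was under 200 in 3 of the nulliparous and 3 of the lactating mice, and 200 or more in the other 4 nulliparous and 3 lactating mice and in every mouse (6) of the involution group. Neither the labels nor the methods name these ranges as a batch.

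Slc22 transporters carry small charged molecules across the plasma membrane. In hepatocytes they bring organic cations, organic anions, carnitine and many drugs in from sinusoidal blood, before metabolism or export into bile, and several members have their main site in the kidney. Within the family, Slc22a3 encodes the cation and monoamine transporter OCT3, Slc22a5 encodes OCTN2, the high-affinity carnitine transporter, and Slc22a7 encodes the organic anion transporter OAT2 of the hepatocyte. Slc22a15 encodes a carrier of zwitterions. Slc22a18 is an imprinted gene and Slc22a23 an orphan transporter, both without a settled substrate. Slc22a27, Slc22a28 and Slc22a30 belong to a rodent-specific block of organic anion transporter genes on chromosome 19.

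Levels are given as TPM, the transcripts of a gene per 1000000 transcripts of the mouse, which correct for gene length, so they can be compared between genes. All 9 genes had a mean of at least 0.1 TPM over the 19 mice, the minimum for a test across genes. Of the other 15 Slc22a genes analysed, 5 reached it, and the other 10 never exceeded 0.08 TPM in any mouse, 3 of them (Slc22a16, Slc22a19 and Slc22a22) being listed at 0 throughout. In nulliparous livers the order of the 9 means ran from Slc22a18 (104 TPM ± 15.8, SD, n = 7) and Slc22a30 (75.1 ± 13.7) through Slc22a27 (34.9 ± 15.6), Slc22a7 (30.2 ± 11.8), Slc22a23 (20.8 ± 5.08) and Slc22a5 (11.8 ± 1.96) to Slc22a15 (5.09 ± 0.459) and Slc22a3 (0.947 ± 0.438), with Slc22a28 below 1 TPM in every mouse. Slc22a18 was above Slc22a30 in all 7 nulliparous, all 6 lactating and all 6 involution mice. Slc22a27 and Slc22a7 were neighbours within their spread in nulliparous mice, Slc22a27 being the higher in 5 of 7. In lactating mice Slc22a7 dropped below Slc22a5 in the order of means, and Slc22a5 was the higher of the pair in 3 of 6 mice.

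The summed level of the 9 genes was 264 to 301 TPM in nulliparous, 231.9 to 254 TPM in lactating and 276 to 300 TPM in involution mice. The lactating mice were thus all below the other mice in this sum. The 9 genes were chosen on their stage values, so this separation describes the chosen set and not the family. Among the genes left out, the mean of Slc22a26 was 83.3 TPM in nulliparous and 101.6 TPM in lactating mice. That of Slc22a29 went the other way, from 12.4 to 6.68 TPM.

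**Figure D1:**
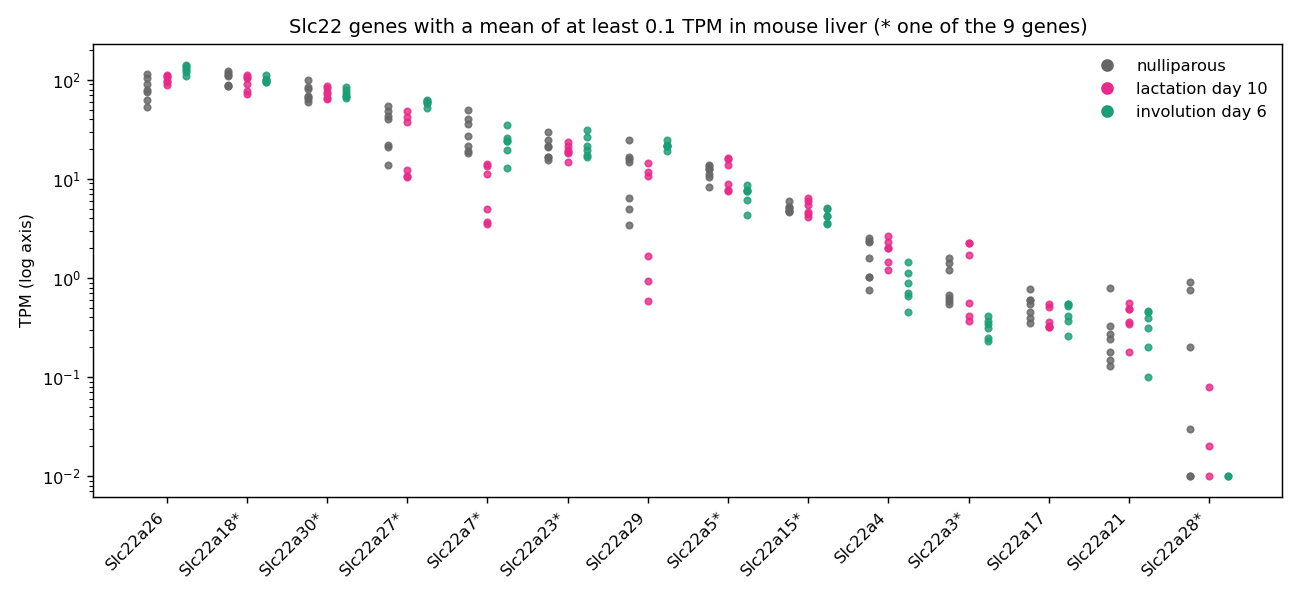
TPM (log axis) of 14 Slc22a genes whose mean reached 0.1 TPM, ordered by mean, with 1 point per mouse coloured by stage and values of 0 not drawn. The 9 genes (asterisks) span from the level of Slc22a18, 104 TPM in nulliparous mice, down to Slc22a28, whose highest mouse reached 0.92 TPM.

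As to the cells in these livers, 6 of 7 hepatocyte markers were in the table and none of them was at 0 in any group, with summed levels of 56775 to 92710 TPM in nulliparous, 97182 to 149005 TPM in lactating and 77991 to 109107 TPM in involution mice. Albumin (Alb) made up most of that sum, with medians of 51260, 98898 and 58829 TPM in the same order, while the median of Ttr went from 7554 to 5394 TPM and that of Serpina1c from 3210 to 2581 TPM between nulliparous and lactating mice. The 6 kidney tubule markers summed to at most 0.06 TPM in any mouse, and 3 of them were listed at 0 in all 19. Summed Kupffer cell markers (6 genes) ran from 149 to 286 TPM in nulliparous, 96.5 to 204 TPM in lactating and 329 to 471 TPM in involution mice. Sinusoidal endothelial markers (5 genes) ran from 148 to 180, 77.4 to 141 and 188 to 212 TPM, and stellate cell and fibroblast markers (6 genes) from 131 to 166, 88.7 to 110 and 122 to 164 TPM. Leukocyte markers (5 genes) ran from 64.2 to 122, 40.2 to 63.4 and 131 to 158 TPM. Erythroid markers (6 genes, mostly globins) ran from 1144 to 2408, 1331 to 3336 and 197 to 847 TPM, so every involution mouse was below every other mouse. Cholangiocyte markers (6 genes) ran from 33.0 to 47.7, 19.4 to 29.6 and 29.4 to 39.8 TPM. Pancreas markers (6 genes) reached 1.44, 28.4 and 1.96 TPM, and adipose tissue markers (4 genes) 18.3, 2.62 and 19.1 TPM. Dcn made up most of the stellate cell sum, Spp1 of the cholangiocyte sum, Lyz2 of the leukocyte sum, and Clec4g with Fcgr2b of the endothelial sum. Between nulliparous and lactating mice the medians of Lyve1 (1.71 to 3.105 TPM), Krt7 (0.30 to 0.40) and Pdgfrb (1.61 to 1.72) rose. Most other markers of their lists fell. The shifts in the sums went with stage beside each comparison below, and their part in the transporter values was not tested. In whole liver, fewer cells of a type and less RNA per cell cannot be told apart.

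Of the 9 genes, Slc22a7 showed the widest gap between lactating and nulliparous liver. The gene lies at chr17:46432183-46438457 on the minus strand of GRCm38, between Crip3 and Ttbk1. Its level was 21.77, 18.28 and 19.09 TPM in the nulliparous mice numbered under 200, and 40.47, 49.18, 27.07 and 35.51 TPM in those numbered 200 and above. In lactating mice it was 3.53, 3.65 and 4.93 TPM under 200, and 14.31, 13.64 and 11.16 TPM at 200 and above. The highest lactating mouse was therefore below the lowest nulliparous mouse, and within each stage the mice numbered 200 and above were the higher ones. Involution mice ran from 12.77 to 34.91 TPM with a median of 24.3, a range that overlapped both other stages. The means were 30.2 ± 11.8 TPM (SD, n = 7), 8.54 ± 5.06 (n = 6) and 23.6 ± 7.32 (n = 6), 3.54-fold lower in lactation than in nulliparous mice and 2.76-fold higher in involution than in lactation. On the log2(TPM + 1) scale, which understates differences at low levels, the difference was -1.81 (SE 0.321) for lactation against nulliparous and 1.5 (SE 0.334) for involution against lactation. Among mice numbered 200 and above these were -1.45 (SE 0.259) and 0.76 (SE 0.240). For involution against nulliparous it was -0.31 (SE 0.321) over all mice, -0.69 (SE 0.219) among mice numbered 200 and above and -0.81 (SE 0.199) with range as a covariate.

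Slc22a27 had its highest mean in involution. It lies at chr19:7864388-7966027 on the minus strand, with Slc22a26 and Slc22a28 as coding neighbours. Nulliparous mice had 13.88, 21.24 and 22.27 TPM under 200, and 54.65, 48.04, 40.79 and 43.14 TPM at 200 and above. Lactating mice had 12.45, 10.77 and 10.48 TPM under 200, and 42.33, 49.01 and 37.62 TPM at 200 and above. Involution mice, all numbered 200 and above, ran from 51.63 to 62.52 TPM with a median of 59.8. Every involution mouse was above every lactating mouse, but the distance to the lactating mice of the same range was small beside the distance between the ranges. The involution mean was 2.17-fold that of all lactating mice and 1.37-fold that of the lactating mice numbered 200 and above. The log2 difference was 1.37 (SE 0.383) over all mice and 0.45 (SE 0.10) among those numbered 200 and above. For lactation against nulliparous it was -0.49 (SE 0.369) over all mice, with overlapping values, and the mean was 1.70-fold lower in lactation under 200 against 1.09-fold lower at 200 and above. For involution against nulliparous the log2 difference was 0.88 (SE 0.369) over all mice, also with overlapping values. It was 0.34 (SE 0.091) among mice numbered 200 and above and 0.22 (SE 0.128) with range as a covariate.

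Slc22a3 and Slc22a5 were lowest in involution. Slc22a3 (chr17:12418960-12507704, minus strand, next to Slc22a2) stayed near 1 TPM or below in most mice. It was at 1.41, 1.19 and 1.59 TPM in nulliparous mice under 200 and 0.67, 0.59, 0.55 and 0.63 TPM at 200 and above. In lactation it was at 2.26, 2.27 and 1.70 TPM under 200 and 0.41, 0.37 and 0.56 TPM at 200 and above. Involution mice had 0.23 to 0.41 TPM with a median of 0.325, all below every nulliparous mouse. In lactation the mice numbered under 200 were thus all above nulliparous mice of their own range, and those numbered 200 and above overlapped the lower end of theirs. The log2 difference of lactation from nulliparous was 0.14 (SE 0.204) over all mice and -0.16 (SE 0.076) among those numbered 200 and above. The log2 difference of involution from lactation was -0.68 (SE 0.212) over all mice and -0.13 (SE 0.070) among those numbered 200 and above. At this level the differences depend on the pseudocount, and with 0.1 in place of 1 TPM that of lactation from nulliparous was 0.15 and that of involution from lactation was -1.39.

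Slc22a5, the carnitine transporter (chr11:53864542-53891660, minus strand, next to its paralog Slc22a21), had 12.55, 13.91 and 13.62 TPM in nulliparous mice under 200 and 8.36, 12.57, 10.42 and 11.26 TPM at 200 and above. Lactating mice had 16.38, 16.09 and 13.82 TPM under 200 and 7.71, 8.92 and 7.52 TPM at 200 and above. The lactating mice fell into separate groups by range, and their overall mean of 11.7 ± 4.17 TPM (SD, n = 6) was close to the nulliparous mean while no lactating mouse lay within 2 TPM of it. Involution mice ran from 4.31 to 8.70 TPM, with a median of 7.60. The log2 difference of involution from nulliparous was -0.69 (SE 0.185) over all mice and -0.55 (SE 0.155) among those numbered 200 and above. That of involution from lactation was -0.63 (SE 0.192) and -0.20 (SE 0.169), and that of lactation from nulliparous was -0.06 (SE 0.185) and -0.35 (SE 0.183).

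The other 5 genes differed less between stages on the log2(TPM + 1) scale. Slc22a18, at chr7:143473736-143499334 between the imprinted genes Cdkn1c and Phlda2, had means of 104 ± 15.8, 93.9 ± 16.2 and 100 ± 6.95 TPM (SD, n = 7, 6 and 6) in nulliparous, lactating and involution mice. Among mice numbered 200 and above, however, every involution mouse (94.45 to 113.18 TPM) was above every lactating mouse (72.62 to 90.18 TPM), with a log2 difference of 0.32 (SE 0.092). Slc22a30 had 75.1 ± 13.7, 74.6 ± 9.13 and 73.2 ± 7.28 TPM, and its log2 differences between stages lay between -0.02 and 0.00. Slc22a23 had 20.8 ± 5.08, 19.4 ± 3.04 and 22.05 ± 5.62 TPM, and Slc22a15 had 5.09 ± 0.459, 5.18 ± 0.934 and 4.28 ± 0.678 TPM, with overlapping values in every comparison. Slc22a28 was at 0.75, 0.20 and 0.92 TPM in the nulliparous mice numbered under 200. In the other 16 mice it was between 0 and 0.08 TPM. As a ratio its mean was 15.0-fold lower in lactating than in nulliparous mice, which rests on those 3 nulliparous mice and on values of a few hundredths of a TPM.

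**Figure D2:**
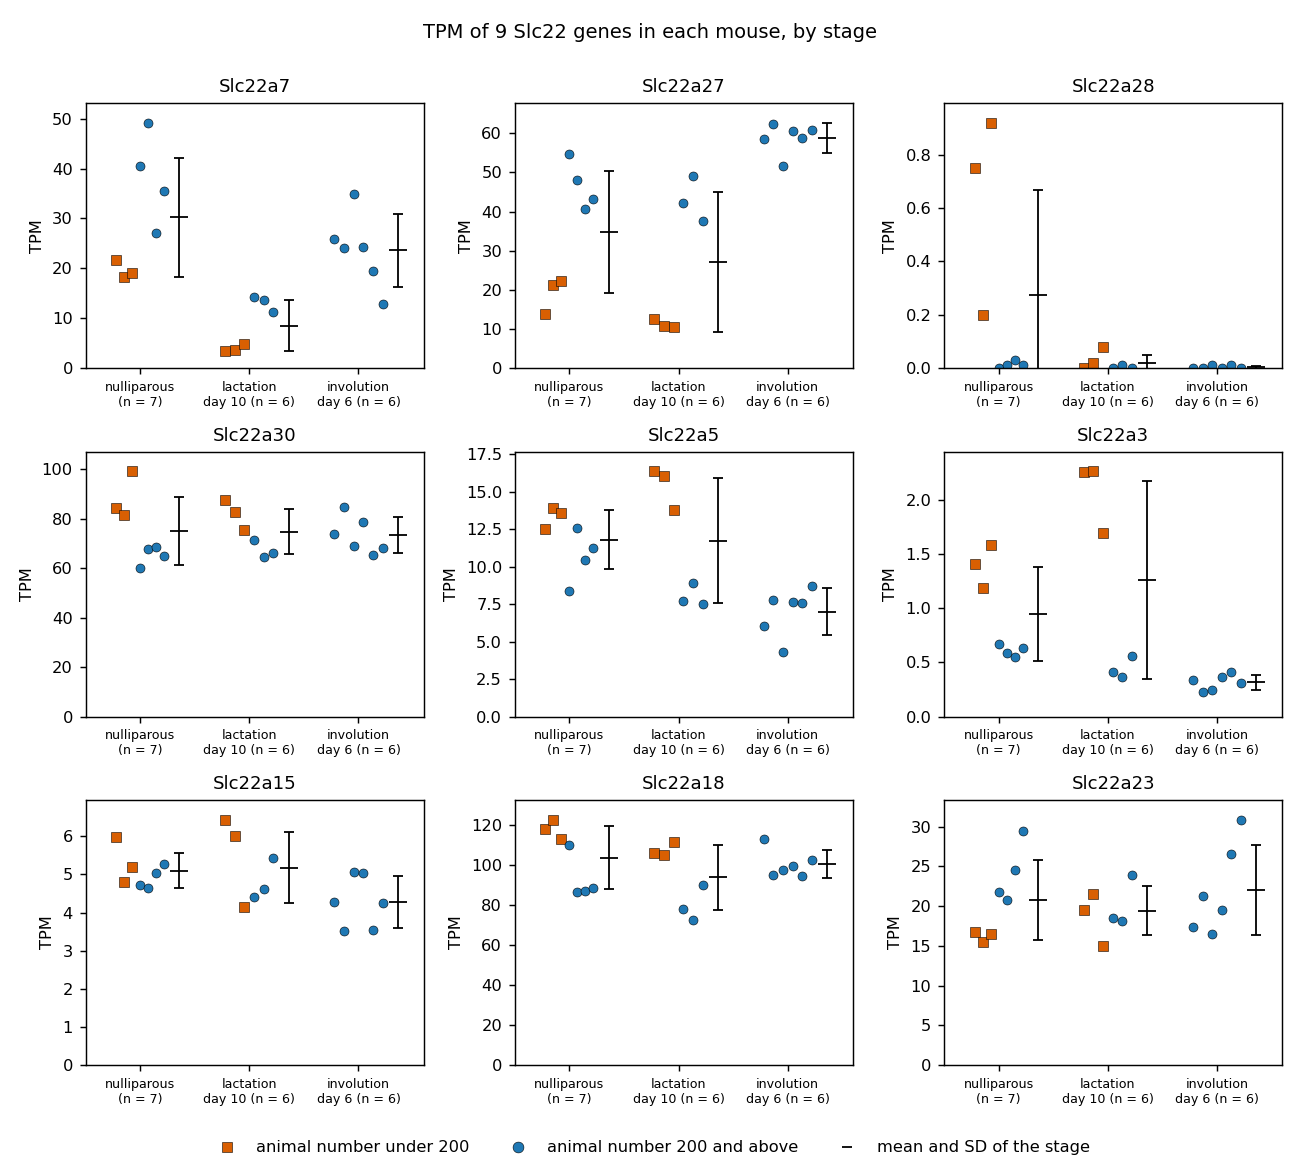
TPM of the 9 genes in each of the 19 mice (linear axes from 0), by stage, with orange squares for animal numbers under 200, blue circles for 200 and above, and black bars for the mean and SD of the stage. Slc22a7 has its lowest mean in the lactating mice (8.54 TPM), Slc22a27 is at 51.63 TPM or more in the 6 involution mice, and in Slc22a7, Slc22a27, Slc22a3, Slc22a18 and Slc22a30 the squares and circles do not overlap within nulliparous or within lactating mice.

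Because the stage values chose the genes, the counts that follow are read only as a description. Calls needed a limma adjusted p under 0.05 together with a log2 difference of 1 or more in size. For lactation against nulliparous, 1 of 9 genes was called (Slc22a7), in a comparison that called 0.746% of all genes, and 1 of 9 passed on adjusted p alone against 9.21%. For involution against lactation 2 were called (Slc22a7 and Slc22a27) against 1.93%, and 4 passed on adjusted p alone (Slc22a7 and Slc22a27 higher, Slc22a3 and Slc22a5 lower) against 22.8%. For involution against nulliparous limma called 0 of 9 against 0.253%, with 1 passing on adjusted p alone (Slc22a5, lower) against 4.36% and 5 at an unadjusted p under 0.05. No share of all genes was taken at an unadjusted p, so such counts, here and below, have none to be set beside. The values of the stages did not overlap for Slc22a7 in the first comparison, Slc22a27 in the second and Slc22a3 in the third, 1 of 9 genes each time, against 3.27%, 11.5% and 2.38% of all genes. The median log2 difference over the 9 genes was -0.07, -0.02 and -0.21 in the 3 comparisons, beside -0.03, 0.10 and 0.07 over all genes. With median-ratio scaling of the mice the all-gene median for involution against lactation moved from 0.10 to -0.01, and the difference of Slc22a7 was 1.35 and that of Slc22a27 was 1.21. Since every involution mouse is numbered 200 and above, the counts on adjusted p alone were also taken with range as a covariate. They were then 2 of 9 for lactation against nulliparous (Slc22a7 and Slc22a27, lower) against 15.7% of all genes, and 3 for involution against lactation (Slc22a7, Slc22a18 and Slc22a27, higher) against 16.8%. For involution against nulliparous 1 passed against 1.57%, which was Slc22a7 (lower) and no longer Slc22a5.

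The other 5 Slc22a genes tested are those left over when the genes described above were chosen on their stage values. Their set was therefore fixed by the same values. Their stage differences were tested, but the p-values of these 5 genes do not account for that choice. Slc22a29, the chromosome 19 gene most alike to Slc22a27 in its transcript, had 12.4 ± 7.72, 6.68 ± 6.29 and 21.8 ± 1.77 TPM. Its lactation and involution values did not overlap, which held for 11.5% of all genes. From lactation to involution it rose by 2.14 on the log2 scale (SE 0.546, adjusted p = 0.00822), and by 0.79 (adjusted p = 0.00191) among mice numbered 200 and above. With range as a covariate that rise was 1.06 (adjusted p = 0.00164), and the difference of lactation from nulliparous, -0.98, also passed (adjusted p = 0.00129).

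Slc22a26, the next gene of the chromosome 19 block, rose from nulliparous to involution mice, from 83.3 ± 22.2 to 129 ± 12.0 TPM (log2 difference 0.66, adjusted p = 0.0137). Among mice numbered 200 and above that difference was 0.41, with an adjusted p of 0.0854, and with range as a covariate it was 0.51 (adjusted p = 0.0381). With that covariate it was also higher in lactation than in nulliparous mice, by 0.35 (adjusted p = 0.0385). Slc22a4, the ergothioneine transporter OCTN1 and a chromosome 11 neighbour of Slc22a5, fell from lactation to involution, from 1.94 ± 0.537 to 0.880 ± 0.364 TPM (log2 difference -0.65, adjusted p = 0.0158), and that difference was -0.50 with an adjusted p of 0.0765 among mice numbered 200 and above and -0.39 (adjusted p = 0.0929) with range as a covariate. Slc22a17 and Slc22a21 had means under 1 TPM in each stage and passed in no stage comparison. By the rule that also asks for a log2 difference of 1, limma called 0 of 5 in lactation against nulliparous, against 0.746% of all genes. At an unadjusted p under 0.05 there were 2. In involution against lactation limma called 1 of 5, which was Slc22a29, against 1.93%. For involution against nulliparous it called 0 of 5 against 0.253%, again with 2 at an unadjusted p under 0.05.

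The animal number ranges were also compared among mice of the same stage. The split into ranges was chosen with earlier results of these data known, and the p-values below do not account for it. The choice of genes was not independent of range, because the stage values that chose them set involution mice of 1 range against stages of both, so the counts of the 9 genes are a description, and the p-values do not account for that choice. Over the 7 nulliparous and 6 lactating mice, with stage in the fit, 8 of the 9 genes differed between the ranges at an adjusted p under 0.05, against 25.6% of all genes tested. Of these, 3 were higher at 200 and above, against 16.4% of all genes, and 5 were lower, against 9.14%. The rule that also asks for a log2 difference of 1 called Slc22a27 and Slc22a7, against 1.95% of all genes.

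Slc22a27 was higher at 200 and above by 1.53 on the log2 scale (SE 0.135, adjusted p = 4.78e-06), with a 2.44-fold higher mean in nulliparous and a 3.83-fold higher mean in lactating mice. Slc22a7 was higher by 1.17 (SE 0.146, adjusted p = 9.77e-05), 1.93-fold and 3.23-fold in the same order. Both genes had every mouse numbered 200 and above over every mouse under 200 in each stage. Slc22a23 was higher by 0.34, with an adjusted p of 0.0479 that rose past 0.05, up to 0.113, when any of 9 of the 13 mice was left out, that is any nulliparous mouse or the lactating mice at 14.98 and 23.86 TPM.

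On the log2(TPM + 1) scale Slc22a3 had the largest drop among the 9, lower by 0.81 at 200 and above (SE 0.099, adjusted p = 7.74e-05), with means 2.29-fold lower in nulliparous and 4.65-fold lower in lactating mice. Slc22a5 was lower by 0.57 (SE 0.112, adjusted p = 0.00263), Slc22a18 by 0.38 (SE 0.067, adjusted p = 0.00121) and Slc22a30 by 0.36 (SE 0.063, adjusted p = 0.00121). Slc22a28, whose ratio of means was larger (49.9-fold lower in nulliparous mice, 0.623 against 0.0125 TPM), was lower by 0.37 with an adjusted p of 0.0402, which rose past 0.05, up to 0.0973, when any of 6 mice was left out, namely the nulliparous mice other than those at 0.20 and 0.92 TPM or the lactating mouse at 0.08 TPM. Without the nulliparous mouse at 0.92 TPM, its mean was under the minimum for a test. The difference for Slc22a15 was -0.12 (95% interval -0.32 to 0.08, adjusted p = 0.363). Among the other Slc22a genes, Slc22a29 had a difference of 2.16 (SE 0.212, adjusted p = 1.23e-05), while Slc22a4 was lower by 0.52 (adjusted p = 0.00797) and Slc22a26 was higher by 0.36 (adjusted p = 0.0451).

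**Figure D3:**
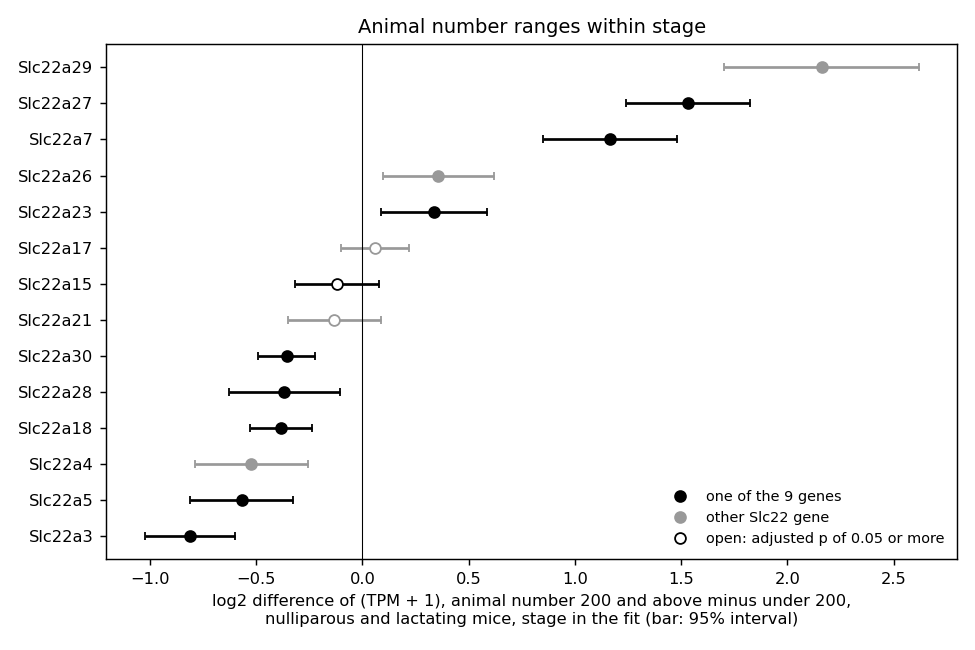
Log2 difference of TPM + 1 between mice numbered 200 and above and mice numbered under 200, with stage in the fit (13 mice), for the 9 genes (black) and the other 5 Slc22a genes tested (grey); bars are 95% intervals and open points have an adjusted p of 0.05 or more. Slc22a29 (2.16), Slc22a27 (1.53) and Slc22a7 (1.17) lie to the right, and Slc22a3 (-0.81) lies farthest to the left.

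The values of the ranges did not overlap for 7 of the 9 genes within nulliparous mice, against 32.0% of all genes, and for 6 of 9 within lactating mice, against 29.4%. In both stages and in the same direction they did not overlap for 5 of 9 (Slc22a3, Slc22a7, Slc22a18, Slc22a27 and Slc22a30), against 13.3%. Other values moved with the ranges. Summed Kupffer cell markers were 149 to 190 TPM under 200 and 236 to 286 TPM at 200 and above in nulliparous mice, and 96.5 to 136 against 143 to 204 TPM in lactating mice. The hepatocyte marker sum was 56775 to 67702 against 72210 to 92710 TPM, and 97182 to 107700 against 127877 to 149005 TPM. Zhx2, which encodes a repressor of liver genes and was singled out after its values were seen, was at 2.36 to 2.79 TPM under 200 and 0.08 to 0.12 TPM at 200 and above in nulliparous mice, and 3.14 to 3.73 against 0.06 to 0.13 TPM in lactating mice. The part of these in the transporter values was not tested.

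Whether lactation went with the same difference in both ranges was asked with an interaction term. By limma, 0 of 9 genes passed, with 5 at an unadjusted p under 0.05. That contrast called 0.0804% of all genes by both thresholds and 0.111% on adjusted p alone. Neither share is for an unadjusted p, so the count of 5 has none to be set beside. The lactation difference at 200 and above minus that under 200 was 0.60 for Slc22a7 (95% interval 0.05 to 1.14, adjusted p = 0.336), 0.58 for Slc22a27 (0.09 to 1.07, adjusted p = 0.304), -0.51 for Slc22a3 (-0.82 to -0.21, adjusted p = 0.191) and -0.55 for Slc22a5 (-0.92 to -0.17, adjusted p = 0.228). For Slc22a28 it was 0.61 with an adjusted p of 0.219, which became 0.0123 without the nulliparous mouse at 0.20 TPM. For Slc22a7 the lactating mice were below the nulliparous mice of their own range in both ranges, with means 4.88-fold and 2.92-fold lower.

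Slc22a27, Slc22a28, Slc22a29 and Slc22a30 lie in a row on the minus strand of chromosome 19, between Slc22a26 and Slc22a8. Their transcripts are close copies. Over aligned bases of the longest GENCODE transcripts, Slc22a27 and Slc22a29 were 96.0% identical and Slc22a28 and Slc22a30 were 91.8% identical. Of all windows of 150 bases, the length of 1 read, 28.5% in Slc22a28 and 19.7% in Slc22a30 also occurred in another gene, and of windows of 300 bases, about the length of a sequenced fragment, 19.8% and 14.4% did. The levels of this pair are therefore in part estimates. In Slc22a27 and Slc22a29 the share was 0.599% and 0.566% at 150 bases and 0 at 300. In Slc22a5 it was 7.55% and 2.24%, all of it with Slc22a21, and in Slc22a3, Slc22a7, Slc22a15, Slc22a18 and Slc22a23 it was 0 at both lengths.

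The promoters of this row, from 250 bases before to 50 after the RefSeq start on GRCm38.p6, are shown because their likeness and the genes' levels differ. Those of Slc22a28 and Slc22a30 were 97.96% identical over 294 aligned bases, although Slc22a30 was at 60.11 to 99.15 TPM and Slc22a28 at 0.92 TPM or less in all 19 mice. In these first sequences, capitals mark the bases without an identical partner in the other one (12 in each, of which 6 overhang at an end), and they are written 5′ to 3′ along the minus strand.
Slc22a28, chr19:8131933-8132232: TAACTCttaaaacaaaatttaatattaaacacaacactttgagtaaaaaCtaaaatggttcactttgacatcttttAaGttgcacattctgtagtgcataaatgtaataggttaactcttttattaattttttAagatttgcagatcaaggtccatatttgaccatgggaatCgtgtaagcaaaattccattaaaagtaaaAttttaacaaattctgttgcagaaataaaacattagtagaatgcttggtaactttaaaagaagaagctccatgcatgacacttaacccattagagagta
Slc22a30, chr19:8405056-8405355: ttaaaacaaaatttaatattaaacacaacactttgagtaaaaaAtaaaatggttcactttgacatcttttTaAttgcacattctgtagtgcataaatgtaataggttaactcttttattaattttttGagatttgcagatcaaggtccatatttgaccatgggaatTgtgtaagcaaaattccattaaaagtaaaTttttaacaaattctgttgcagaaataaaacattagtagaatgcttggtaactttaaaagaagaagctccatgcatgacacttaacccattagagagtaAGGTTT

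Slc22a29 was the gene most like Slc22a27 over the 19 mice (Pearson's r = 0.979, and 0.676 for deviations from the mean of each stage and range), and their promoter windows were 60.5% identical over 266 aligned bases, within the 57.0% to 63.5% that the Slc22a26 promoter shared with the 4 promoters of the row. The Slc22a29 window was nearer to those of Slc22a28 (77.2%) and Slc22a30 (79.3%). The last 50 bases of the Slc22a29 window were not found in the longest GENCODE transcript compared above, unlike those of the other 3. The GENCODE gene itself reaches chr19:8218900, inside the window. The window and the transcript compared for Slc22a29 may therefore not share a start. The capitals below mark matches to the letters of 4 motifs searched on both strands, which were GTTAAT (an HNF1 half-site), TGTTTAC (FOXA), AGGTCA (a nuclear receptor half-site) and TTCNNNGAA (STAT). They occur in 7.10%, 3.65%, 16.3% and 8.30% of 32851 RefSeq promoters of this length.
Slc22a27, chr19:7965978-7966277: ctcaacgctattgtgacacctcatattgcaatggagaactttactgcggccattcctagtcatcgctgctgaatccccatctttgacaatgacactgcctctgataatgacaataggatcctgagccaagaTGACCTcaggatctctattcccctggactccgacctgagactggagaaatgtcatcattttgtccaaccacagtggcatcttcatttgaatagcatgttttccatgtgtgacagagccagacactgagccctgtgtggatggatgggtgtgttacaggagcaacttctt
Slc22a29, chr19:8218851-8219150: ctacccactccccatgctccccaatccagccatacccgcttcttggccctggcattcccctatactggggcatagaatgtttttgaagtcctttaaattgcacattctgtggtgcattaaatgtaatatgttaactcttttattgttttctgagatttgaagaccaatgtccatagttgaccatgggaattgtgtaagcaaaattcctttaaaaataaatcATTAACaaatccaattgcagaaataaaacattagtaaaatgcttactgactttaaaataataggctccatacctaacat
The match in Slc22a27 is the nuclear receptor half-site on the other strand, 119 bases before the start, and that in Slc22a29 is the HNF1 half-site on the other strand, 29 bases before the start. Promoters were matched for 8 of the 9 genes, and the only other match among these was the STAT letters in Slc22a15, 164 bases before the start. A match of letters is a description of the sequence and no evidence of binding.

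For the 7 genes whose mean reached 1 TPM, the genes most alike over the 19 mice were found by Pearson's r of log2(TPM + 1) among 11604 other genes. The mice share stages and animal number ranges, so r is also given for deviations from the mean of each stage and range, and no p is attached. Slc22a5 was most like Cpt2 (r = 0.957, and 0.852 for the deviations), which encodes the mitochondrial carnitine palmitoyltransferase, Vwa8 (0.955 and 0.811) and Acadl (0.942 and 0.690), which encodes the long-chain acyl-CoA dehydrogenase. Slc22a27 was most like Slc22a29 (0.979 and 0.676), then C1s1 (0.964 and -0.26) and H2-Q7 (0.959 and 0.086). For C1s1 and H2-Q7, r was negative or near 0 once the means of stage and range were removed. For Slc22a23 the likeness was as high within stages and ranges, with Stau1 (0.951 and 0.971), an RNA-binding protein gene, Tgfa (0.929 and 0.932) and Cluh (0.910 and 0.905). Slc22a7 was most like Tstd1 (0.934 and 0.575), Atp6v0e2 (0.917 and 0.063) and Rbx1 (0.916 and 0.780). The first genes were Pigr for Slc22a18 (0.896 and 0.512), Gm6135 for Slc22a30 (0.844 and 0.534) and Thnsl1 for Slc22a15 (0.797 and 0.668).

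**Figure D4:**
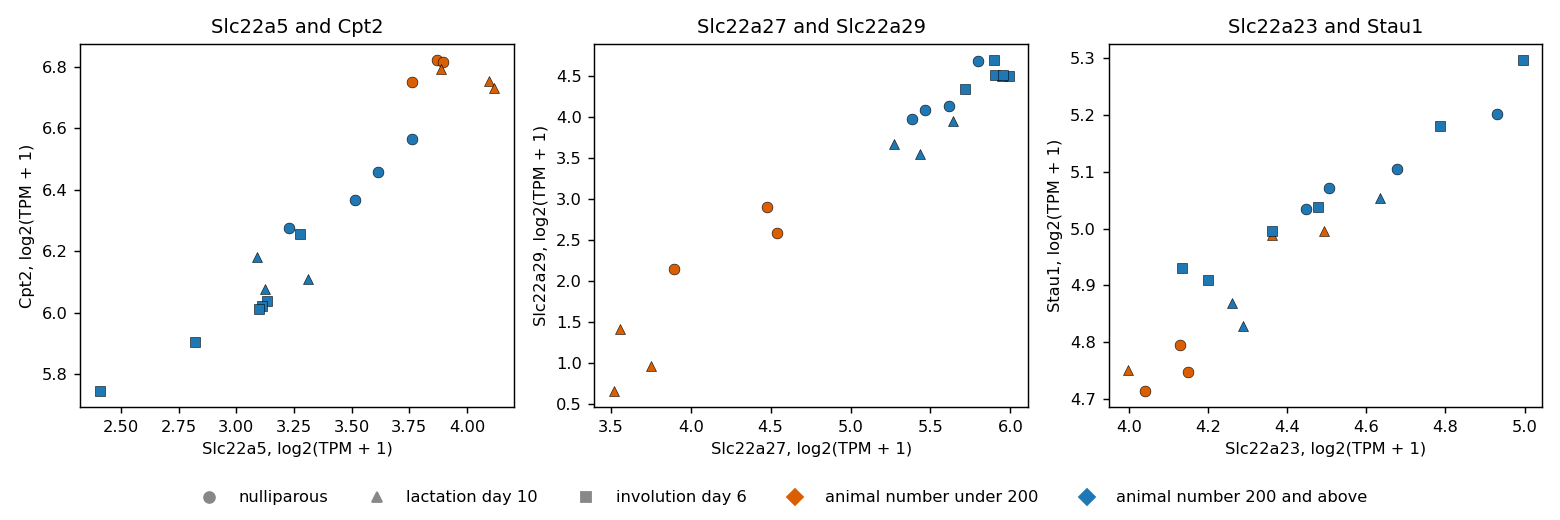
Log2(TPM + 1) of Slc22a5 against Cpt2, Slc22a27 against Slc22a29 and Slc22a23 against Stau1, 1 point per mouse (19), with shape for stage and colour for animal number range. Slc22a5 with Cpt2 and Slc22a23 with Stau1 lie along a line within the ranges, while in Slc22a27 with Slc22a29 the ranges form separate clouds (r = 0.957, 0.951 and 0.979 over all mice).

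Genes that act on the same substrates or share the route through the hepatocyte were taken from lists. These lists, here and below, were chosen with earlier results of these data known. The genes named from them were picked in part by the size of their difference. The p-values do not account for either choice. Counts of the lists are on adjusted p alone. In either direction, 9.21% of all genes passed in lactation against nulliparous, 22.8% in involution against lactation and 4.36% in involution against nulliparous. For every list, here and below, the values are from the fit over all mice, without animal number range. Every involution mouse is of the higher range, so in the comparisons with involution the part of range was not separated from that of stage. With range as a covariate, 16.8% of all genes passed in involution against lactation and 1.57% in involution against nulliparous. Of 10 carnitine synthesis and shuttle genes tested, 0 rose and 3 fell from nulliparous to involution mice: Cpt2 (95.5 to 63.2 TPM, log2 difference -0.58, adjusted p = 0.0239), Slc25a20, the carnitine carrier of the inner mitochondrial membrane (-0.57, adjusted p = 0.0300), and Aldh9a1 of carnitine synthesis (-0.47, adjusted p = 0.0166). Their median was -0.36, beside 0.07 over all genes. From lactation to involution 1 rose and 3 fell (median -0.12), and from nulliparous to lactating mice 0 rose and 2 fell (median -0.17), both times with Crot, the peroxisomal carnitine octanoyltransferase, among them. Its level fell from 411 to 215 TPM in lactation (log2 difference -0.92, adjusted p = 4.53e-06) and rose to 352 TPM in involution (0.71, adjusted p = 2.4e-05). Of 15 PPAR alpha targets, 0 rose and 8 fell from lactation to involution (median -0.62, beside 0.10 over all genes). The fatty acid omega-hydroxylases Cyp4a14 (751 to 10.7 TPM, log2 difference -5.19, adjusted p = 0.000448) and Cyp4a10 (906 to 20.9 TPM, -5.04, adjusted p = 0.000337) and the thioesterase Acot1 (-3.42, adjusted p = 0.00595) fell most. From nulliparous to involution mice 0 rose and 5 fell, Cyp4a14 (-4.52, adjusted p = 0.00978) and Cyp4a10 (-3.07, adjusted p = 0.0418) most, and from nulliparous to lactating mice 0 rose and 2 fell.

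A list of 12 other uptake carriers was drawn up for the sinusoidal membrane, and the site of each in these livers was not tested. Of these, 1 rose and 1 fell in lactation, where 9.21% of all genes passed in either direction. Slco2a1, the prostaglandin transporter, rose from 8.75 to 22.8 TPM (log2 difference 1.27, adjusted p = 0.000115), and Slco1b2, a carrier of bile acids and drugs, fell from 345 to 247 TPM (-0.47, adjusted p = 0.0377). From lactation to involution 2 rose and 2 fell, Slco2a1 falling by 0.75 (adjusted p = 0.00349), and from nulliparous to involution mice 0 changed. Of 16 efflux and canalicular export genes, 1 rose and 1 fell in lactation, 4 rose and 2 fell from lactation to involution, and 3 rose and 0 fell from nulliparous to involution mice. The sterol exporter genes Abcg5 and Abcg8 rose from lactation to involution by 0.94 and 0.99 (adjusted p = 3.13e-05 and 3.8e-05).

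Of 21 regulators and hormone receptors, 0 rose and 3 fell in lactation, namely Ghr, the growth hormone receptor (247 to 187 TPM, log2 difference -0.40, adjusted p = 0.00307), and its signal transducers Stat5a (-0.55, adjusted p = 0.00208) and Stat5b (-0.43, adjusted p = 0.00506). From lactation to involution 5 rose, these 3 among them, and 1 fell, and from nulliparous to involution mice 0 changed. Of 14 female-biased liver genes 3 rose and 1 fell in lactation (median 0.44, beside -0.03 over all genes), 1 rose and 4 fell from lactation to involution, and 0 rose and 2 fell from nulliparous to involution. In lactation the cytochrome P450 genes Cyp3a41a (2.16, adjusted p = 0.00215) and Cyp17a1 (1.75, adjusted p = 0.0491) rose and Cyp2b13 (-1.67, adjusted p = 0.00193) fell. From lactation to involution Cyp17a1 (-2.91, adjusted p = 0.00103), Cyp2b10 (-1.76, adjusted p = 0.000268) and Cyp3a41a (-1.55, adjusted p = 0.0117) fell most, and from nulliparous to involution mice Cyp2b13 (-1.23, adjusted p = 0.0317) and Cyp2b10 (-1.01, adjusted p = 0.0488) fell. Of 8 male-biased genes 1 fell in lactation and 0 changed otherwise. Of 9 genes of prostaglandin, cyclic nucleotide and urate handling, 1 rose and 1 fell in lactation. Of 13 genes from the chromosomal surroundings of Slc22a3, Slc22a5, Slc22a7 and Slc22a18, which include Slc22a4, 1 rose and 1 fell. From lactation to involution the neighbours had 3 genes higher and 1 lower, beside 22.8% of all genes in either direction, and the prostaglandin, cyclic nucleotide and urate genes 1 higher and 2 lower. From nulliparous to involution mice each of these lists had 1 gene higher and 0 lower.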

How the data were processed

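The livers of 19 mice were compared. Polyadenylated RNA was sequenced with paired-end reads, which the authors placed on GRCm38 and summarised per gene with RSEM 1.3.1. The deposited values are TPM, 1 per gene and mouse, with 2 decimals. The aligner is not given in the sources used here. RSEM divides reads that match several genes, which makes the TPM of close paralogs uncertain. TPM sum to 1000000 per mouse and keep no depth, so precision is known only from the spread between mice. In 0 pairs of mice were all values identical.

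Genes whose mean reached 0.1 TPM were tested on log2(TPM + 1) with limma-trend (limma 3.58.1, R 4.3.3), with Benjamini-Hochberg adjustment over 16230 genes for stages (19 mice, 1 mean per stage) and 16179 for animal number ranges (13 mice). The DESeq2 test of the authors needs counts and was not repeated. Positions and transcripts are from GENCODE M21 (GRCm38), promoters from RefSeq (GRCm38.p6). The 9 genes, the lists and the ranges were chosen with earlier results of these data known. One gene is not reported here, though it stayed in the fit across all genes. Named were the other Slc22a genes that passed a test or had a mean of 5 TPM, up to 3 genes of each list, and the 3 genes most alike to each of the 9. On simulated data, 194, 192 and 195 of 200 genes changed by a log2 of 1.5 were called in the stage comparisons among 16230 genes, and 195 and 178 in the range and interaction contrasts among 16179. The changed genes had a mean log2(TPM + 1) over 1, which Slc22a3 and Slc22a28 did not reach. The simulated noise was independent between mice, with no range difference in the stage comparisons. Alternatives were other pseudocounts, filters and scaling, adjusted p alone, fewer mice, and range as a covariate.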

Additional observations from a re-analysis of the deposited data

Results flagged for a closer look

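In 2 of 27 groups of mice (9 genes in 3 stages), 1 mouse lay far from the others by Dixon's criterion at 95%, which chance gives in about 1 of 20 groups. Slc22a27 was at 51.63 TPM in 1 involution mouse, where the nearest other mouse was at 58.65 TPM. Slc22a28 was at 0.08 TPM in 1 lactating mouse, where the nearest was at 0.02 TPM.

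For 2 of the 9 genes the lactating mice lay on opposite sides of the nulliparous mean of their own animal number range. The pattern was looked for in the 9 genes only, so no share of all genes can be set beside it. All 3 lactating mice under 200 were above the mean of the nulliparous mice under 200. All 3 at 200 and above were below the mean of the nulliparous mice at 200 and above. The lactation difference at 200 and above minus that under 200 was -0.51 on the log2 scale for Slc22a3 and -0.55 for Slc22a5. The interaction term tested this difference, with limma adjusted p of 0.191 and 0.228.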

How the results depend on the processing

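With range as a covariate, or only mice numbered 200 and above, 0 of the 9 genes were called from lactation to involution (2 over all mice), and with the latter 0 other Slc22a genes (1 over all mice). Of all genes, 1.32% and 1.55% were then called, against 1.93% over all mice. Without the fold threshold, 4 of the 9 and 2 others in involution against lactation, 1 of the 9 and 1 other in involution against nulliparous, 8 of the 9 between ranges, and 74 list results in place of 16. With a pseudocount of 0.1 TPM, 2 other genes were called from lactation to involution, 4 of the 9 between ranges, and 25 list results. Calls among all genes rose too, from 314 to 894 from lactation to involution and from 315 to 702 between ranges. Leaving out each mouse kept every such count within 1.5 times. Under all alternatives run, 0 called results changed direction. The range difference of Slc22a23 had an adjusted p of 0.0693 with median-ratio scaling. Slc22a3 and Slc22a28 had no value with a filter at 1 TPM, and Slc22a28 none among mice numbered 200 and above. No paired analysis was possible because the animal numbers are not shared between stages.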
